A study of Mus musculus with 12 samples.

Results

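Type I interferon stimulated genes were followed in the hippocampus of mice with seizures after a systemic injection of lipopolysaccharide (LPS), a bacterial cell wall glycolipid that triggers inflammation. They were taken as 34 named genes, found on the arrays by the gene symbol of their probes. All 34 were measured, out of 18179 genes in all. The design carried 53 probes for them, and 46 of these were kept because some group had them well above background on each of its 3 arrays. Oas3 entered through LPS 24 h alone, the only group in which all 3 arrays measured it. The dimmer kept probes of Ifi44 and Mx1 entered through the LPS groups only.

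All mice were C57BL/6N males of 12 weeks that had been given 50 nl of 20 mM kainate, a glutamate receptor agonist, into the left dorsal hippocampus, and all had developed chronic seizures by the time of treatment, 3 weeks after kainate. The 4 groups of 3 mice received saline or LPS (100 µg/kg) into the peritoneum and were dissected after 4 h or after 24 h. No group without kainate was analysed here, so every value describes the hippocampus after kainate, and the saline mice are the background for LPS. RNA of the whole hippocampus was hybridised to single-colour Agilent arrays, 1 per mouse.

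Type I interferons are secreted when pattern receptors such as TLR4, the receptor for LPS, signal through the kinase TBK1 and the factor IRF3. They bind the receptor IFNAR1/IFNAR2 on nearly every cell, whose kinases JAK1 and TYK2 activate STAT2. STAT2 and IRF9 are components of the complex ISGF3, which binds interferon-stimulated response elements (ISREs) in promoters and turns on sensors, antiviral effectors and the pathway's own factors. In the brain, microglia, endothelium, astrocytes and neurons can all respond.

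Levels are given as log2 intensity relative to the 75th percentile of the array, so that 0 marks a gene at that percentile and a difference of 1 is a doubling. Differences come with the standard error (SE) of a linear model fitted to all genes and arrays with limma, and calls need an adjusted p (Benjamini-Hochberg, across the 18179 genes) under 0.05. The 75th percentile itself lay at 351.9 to 376.1 intensity units in saline 4 h, against 633.4 to 903.0 units over the other groups, and 54.6% to 55.7% of probes were well above background there, against 58.9% to 71.7% elsewhere. The saline 4 h arrays also stood apart in tissue markers. The summed level of 5 genes of hippocampal excitatory neurons (linear intensity over the 75th percentile) was 30.0 to 30.4 in saline 4 h, 46.5 to 47.5 in LPS 4 h, 64.2 to 65.1 in saline 24 h and 51.0 to 52.9 in LPS 24 h. That of 4 thalamic genes was 12.0 to 12.6, 7.27 to 7.42, 3.91 to 4.01 and 6.04 to 6.20 in the same order. Between the saline groups all 5 neuronal genes were called higher at 24 h, beside 32.3% of all genes. Of the 4 thalamic genes 2 were lower at 24 h and 2 higher, beside 48.5% and 32.3%. They ran from -3.34 (Tcf7l2) to 1.36 (Calb2), so their sum does not describe each gene. The part of these differences in the results below was not tested. The 4 h and the 24 h arrays were scanned in 2 separate runs, so a difference between times and one between scan runs cannot be told apart. Within groups the median SD over arrays was 0.05 to 0.07, against 0.06 to 0.10 over repeated spots of 1 array. That the replicates are separate animals therefore rests on the labels, and p-values measure only the spread between these samples.

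The promoters were searched for the ISRE, and stretches that hold its core are printed. No sequence was used to choose the genes, but they were listed as interferon stimulated genes. Their share of matches is therefore a description and gives no separate support. RefSeq promoter windows on GRCm38.p6, each 300 bases from 250 before the annotated start, were given for 25 of the 34 genes, with 29 windows. The core searched was GAAANNGAAA on both strands, a pair of GAAA blocks with 2 bases between them. It was present in 12 of the 29 windows (41.4%), each of a different gene, and absent from those of 13 genes, against 3.44% of all 32851 windows. The stretches below run 5′ to 3′ on the strand of the gene, with the matches in capitals. They are Ifit1 (chr19:34640755-34640843, plus strand), Ifit3 (chr19:34583343-34583446, plus strand), Isg15 (chr4:156200845-156200926, minus strand), Rsad2 (chr12:26456533-26456602, minus strand), Bst2 (chr8:71537557-71537632, minus strand), Ifitm3 (chr7:141010695-141010772, minus strand), Oas3 (chr5:120777695-120777764, minus strand) and Ddx58 (chr4:40239784-40239853, minus strand).
Ifit1: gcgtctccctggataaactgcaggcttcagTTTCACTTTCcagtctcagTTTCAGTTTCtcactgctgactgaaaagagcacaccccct
Ifit3: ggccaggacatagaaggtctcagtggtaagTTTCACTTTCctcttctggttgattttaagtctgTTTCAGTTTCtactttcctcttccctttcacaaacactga
Isg15: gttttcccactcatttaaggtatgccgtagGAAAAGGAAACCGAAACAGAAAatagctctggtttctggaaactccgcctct
Rsad2: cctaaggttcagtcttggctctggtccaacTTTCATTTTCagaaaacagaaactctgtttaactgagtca
Bst2: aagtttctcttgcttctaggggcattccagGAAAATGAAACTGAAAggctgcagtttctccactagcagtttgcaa
Ifitm3: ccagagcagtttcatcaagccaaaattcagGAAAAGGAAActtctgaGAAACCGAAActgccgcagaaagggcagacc
Oas3: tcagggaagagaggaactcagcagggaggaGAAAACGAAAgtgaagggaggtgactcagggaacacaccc
Ddx58: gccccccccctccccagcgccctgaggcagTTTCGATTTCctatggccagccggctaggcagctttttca

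In Ifit1, Ifit3, Isg15, Rsad2, Bst2 and Oas3 the matches lie before the annotated start. The first base of the match lies 104 and 85 bases before the start in Ifit1, 156 and 122 bases in Ifit3, and 120 bases in Rsad2. Isg15 has 3 overlapping matches, at 78, 72 and 66 bases before the start. Bst2 has 2 overlapping ones, at 130 and 124 bases, and Oas3 has 1 at 75 bases. The matches of Ddx58 and Ifitm3 lie just after the start, at 2 bases in Ddx58 and at 2 and 19 bases in Ifitm3. The remaining matches were in Eif2ak2, Ifih1, Stat2 and Trim21. The longer element GAAANNGAAACT, which contains the core and is nearer to the textbook ISRE, was found in Bst2, Ddx58, Ifit1, Ifit3 and Ifitm3, 5 of 29 windows (17.2%) against 0.271% of all. A match is a description of the letters and not a shown binding site, and the 13 members with a window and no match may hold the element elsewhere.

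The first comparison asks how the interferon stimulated genes stood 4 h after LPS. Of the 34 genes, 28 were higher than in saline and 2 were lower, beside 29.3% of all genes higher and 44.5% lower. Their median difference was 0.79, against -0.15 over all genes. Among them, 14 were both called and at least 2-fold higher, beside 1345 of all 18179 genes. The largest rises were those of Rsad2, Ifit1, Isg20, Oasl1, Ifit2 and Ifih1, which span inhibitors of viral replication, of translation and of viral RNA, and an RNA sensor. In the plot of all members by array, LPS 4 h is the highest block (darkest red) for most rows.

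**Figure D1:**
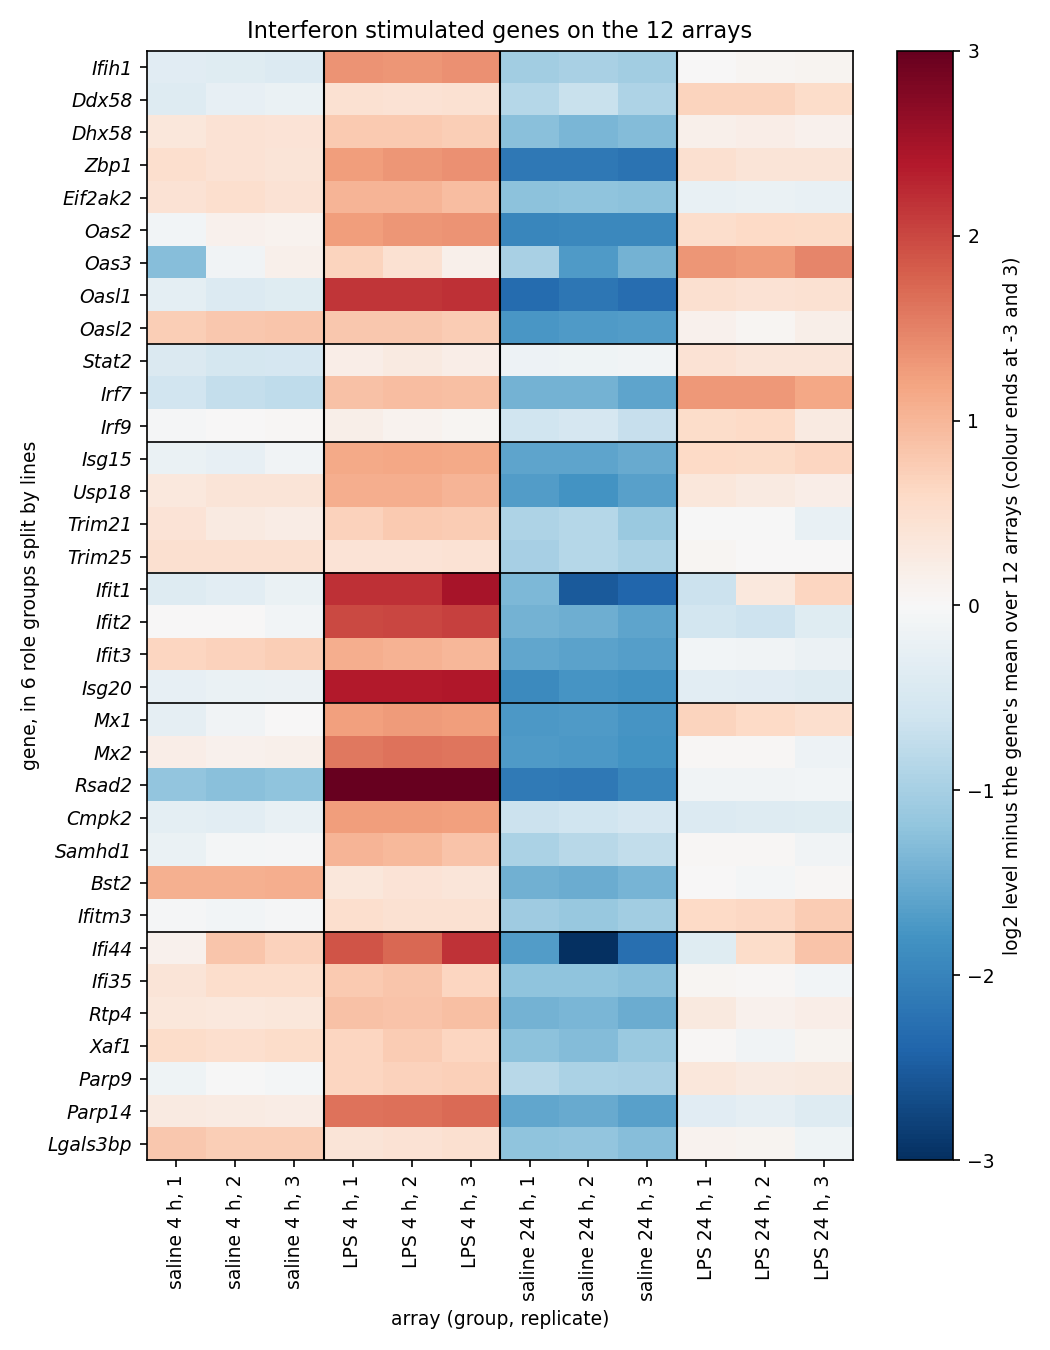
Log2 level of the 34 members (rows, in 6 role groups) on the 12 arrays (columns), each gene relative to its own mean over the arrays. LPS 4 h had the highest mean of the 4 groups for 25 genes and saline 24 h the lowest for 33. The mean of saline 4 h lies above that of saline 24 h for all but Stat2, with overlapping arrays for Oas3.

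Rsad2 encodes viperin, an enzyme that makes a chain-terminating nucleotide against viral polymerases. Its level was -1.52, -1.59 and -1.56 on the saline 4 h arrays and 3.03, 3.05 and 3.06 on the LPS 4 h arrays (probe at chr12:27127859-27127918, mm9). The groups lay far apart, with a difference of 4.60 ± 0.05 (24.3-fold, adjusted p = 1.52e-11, limma, n = 3 per group). Cmpk2, its genomic neighbour and a mitochondrial nucleotide kinase, rose by 1.52 ± 0.04.

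The IFIT proteins bind viral RNA and block its translation. Ifit1 stood at -3.15, -3.07 and -2.96 in saline and at -0.56, -0.57 and -0.28 in LPS (probe at chr19:34723796-34723855), a rise of 2.59 ± 0.36 (adjusted p = 8.16e-05, limma), or 1.67 with normexp background correction. Ifit2 went from -0.67, -0.65 and -0.74 to 1.31, 1.33 and 1.37 (chr19:34650244-34650303), a rise of 2.03 ± 0.07. Every LPS array lay above every saline array for either gene. Ifit3 already stood at 4.04 to 4.12 in saline and rose by only 0.35 ± 0.04, or by 0.62 with quantile normalization and 0.18 with scaling to the array median. Ifit3 has a near-identical neighbour, Ifit3b, and whether its probe separates them was not tested. Isg20, an exonuclease that degrades viral RNA, went from -0.12, -0.08 and -0.05 to 2.49, 2.51 and 2.52 (chr7:86061478-86061537). Its rise of 2.59 ± 0.04 (6.01-fold, adjusted p = 6.10e-11, limma) was as large as that of Ifit1 and had a much smaller SE. The SE pools all 4 groups, and the SD of Ifit1 was 0.68 in LPS 24 h.

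Among the sensors and oligoadenylate synthetase (OAS) genes, 8 of 9 were called higher, beside 29.3% of all genes. Oas3, which no saline 4 h array measured, is 1 of these 8. The median difference of the 9, 0.84, is the fitted value of Oas3 itself. Oasl1, an OAS-like protein known to restrain translation of Irf7, stood at -1.43, -1.53 and -1.48 in saline and 1.01, 1.01 and 1.05 in LPS (chr5:115387556-115387615), a rise of 2.50 ± 0.04 (adjusted p = 9.25e-11, limma). Ifih1, which encodes the RNA sensor MDA5, went from -0.66, -0.68 and -0.75 to 1.01, 1.01 and 1.04 (chr2:62435621-62435680), a rise of 1.72 ± 0.03. The arrays of these genes did not overlap between groups. The related sensors Ddx58 (RIG-I) and Dhx58 (LGP2) rose by 0.73 ± 0.07 (0.43 with normexp background correction) and 0.38 ± 0.04 (0.22 with scaling to the array median), Zbp1, a sensor of Z-form nucleic acid, by 0.87 ± 0.04, Eif2ak2 (the kinase PKR) by 0.54 ± 0.03 and Oas2 by 1.26 ± 0.05 (0.68 with normexp). Oasl2 differed by 0.01 ± 0.04 (adjusted p = 0.886, limma), and its value was 0.19 with quantile normalization and -0.16 with scaling to the array median, so its direction at 4 h depended on the scaling. Oas3 was not well above background on any saline 4 h array and was measured on 2 of 3 LPS 4 h arrays. Its difference of 0.84 ± 0.34 (adjusted p = 0.0453, limma) therefore gives no fold, was 0.40 (adjusted p = 0.12) without saline 4 h replicate 1, lost its call without LPS 4 h replicate 1 or 2 or any of 4 arrays of 24 h, and was -0.10 with normexp background correction.

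Of the factors that carry the signal, Irf7, which amplifies interferon production, rose by 1.59 ± 0.07 and Stat2 by 0.71 ± 0.03. Irf9, the DNA-binding partner in ISGF3, differed by 0.12 ± 0.08 (adjusted p = 0.214, limma). Of the genes of the ubiquitin-like modifier ISG15 and of ubiquitin ligases, Isg15 itself rose by 1.33 ± 0.04, Usp18, which removes ISG15 and shuts off the receptor, by 0.71 ± 0.05 and Trim21 by 0.44 ± 0.08. Trim21 was not called with normexp background correction (0.20, adjusted p = 0.066, limma). Trim25 differed by -0.07 ± 0.03 (adjusted p = 0.109, limma) on its brightest probe. The other effectors rose for the GTPases Mx1 (1.37 ± 0.06, or 0.67 with normexp) and Mx2 (1.45 ± 0.05), the nucleotide hydrolase Samhd1 (1.05 ± 0.07) and Ifitm3 (0.52 ± 0.04), which hinders viral entry. C57BL/6 mice carry a deletion in Mx1 that leaves no working protein, so its transcript is a readout of induction only.

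The genes lower at 4 h were Bst2 and Lgals3bp. Bst2, or tetherin, holds budding virions at the cell surface, and stood at 5.22, 5.20 and 5.24 in saline and 4.49, 4.56 and 4.51 in LPS (chr8:74058603-74058662). The groups did not overlap, and the difference was -0.70 ± 0.04 (adjusted p = 5.61e-08, limma), or -0.31 with quantile normalization and -0.34 in the authors' deposited matrix. Lgals3bp, a secreted galectin-binding glycoprotein, was at 5.73, 5.67 and 5.67 in saline and 5.31, 5.37 and 5.42 in LPS (chr11:118254070-118254129), a difference of -0.33 ± 0.06 (adjusted p = 0.000711, limma). The direction of Lgals3bp turned with quantile normalization (0.06) and in the deposited matrix (0.05), and it was -0.49 with scaling to the array median. Of the remaining interferon-induced genes, Parp14 rose by 1.42 ± 0.04, Parp9 by 0.75 ± 0.04, Rtp4 by 0.55 ± 0.04, Ifi35 by 0.28 ± 0.06 and Xaf1 by 0.15 ± 0.06. Ifi35 was not called with scaling to the array median (0.11, adjusted p = 0.0858, limma). The call of Xaf1 (adjusted p = 0.0497) was lost in 8 of 12 fits that left out 1 array, those of 4 h among them, with adjusted p values up to 0.167, and its sign turned with scaling to the array median (-0.02). Ifi44 differed by 1.37 ± 0.64 (adjusted p = 0.0761, limma). That SE pools all 4 groups, and the SD of Ifi44 was 1.51 in saline 24 h. In a fit of the 4 h groups alone Ifi44 was called higher (adjusted p = 0.00252, limma), so its call depended on the arrays in the fit. Its other kept probe was not well above background on any saline 4 h array and was at least 2.92-fold higher in LPS. That probe was kept only through the LPS groups, so it gives no separate support for a rise.

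**Figure D2:**
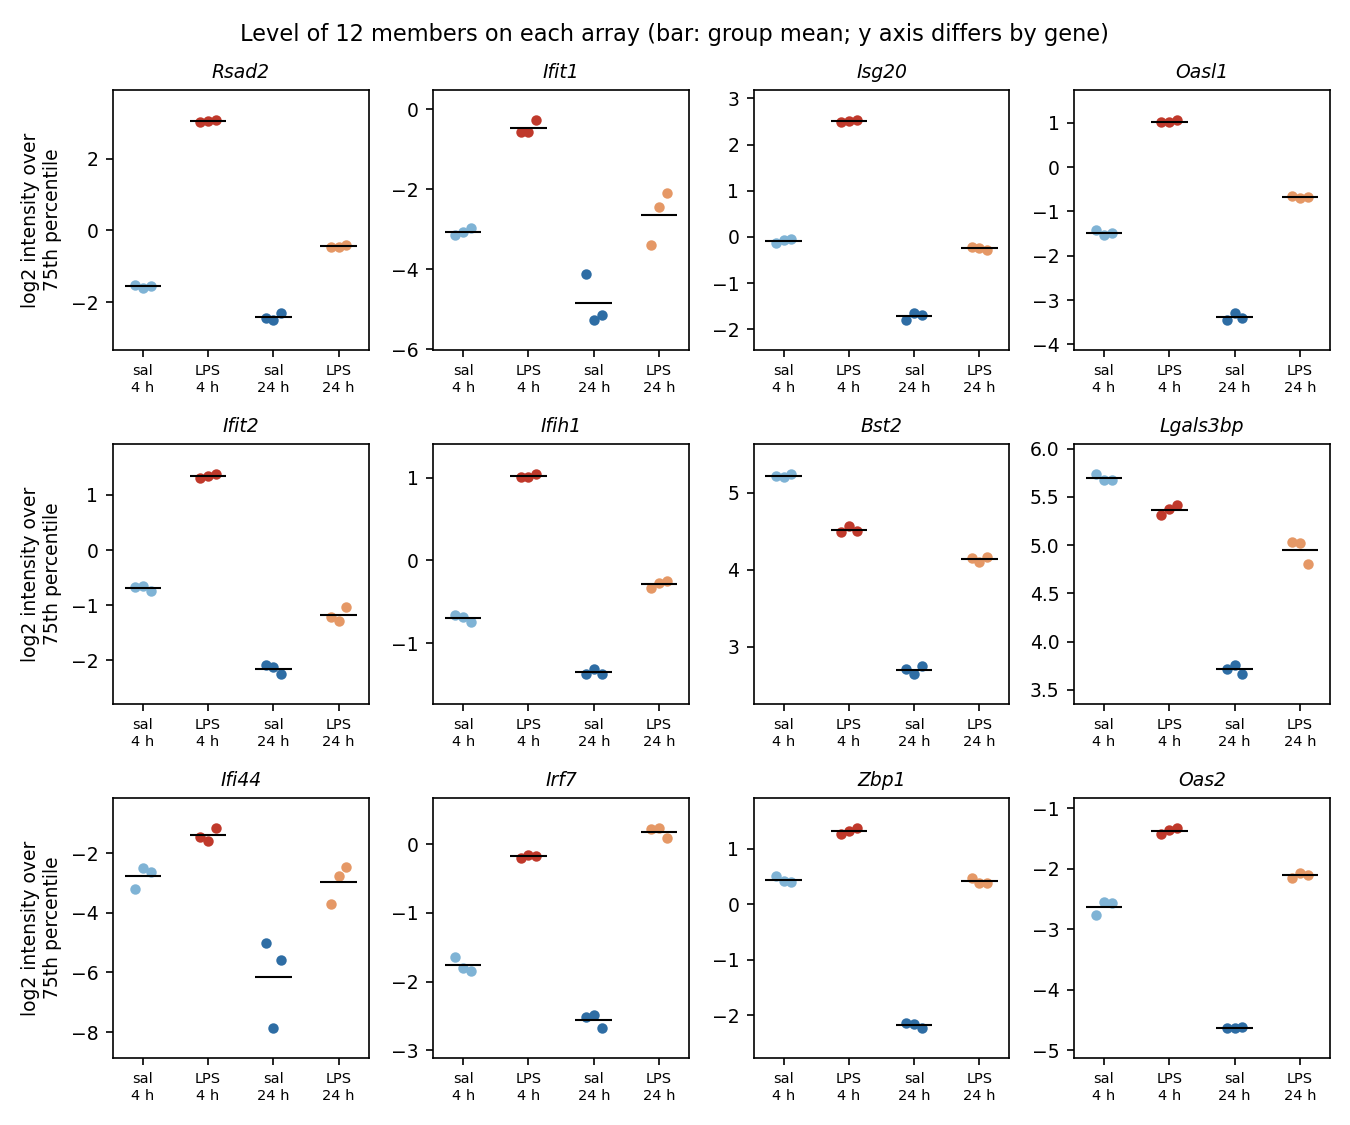
Level of 12 members (log2 intensity over the 75th percentile of the array) on each of the 3 arrays per group, with bars at the group means; the y axis differs by gene. Rsad2 at 4 h lies above 3.0 in LPS and below -1.5 in saline, while Bst2 and Lgals3bp are lower in LPS than in saline at 4 h and higher at 24 h.

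Within each of the 3 slides of 4 h, which hold 1 saline and 1 LPS array each, 30 members were higher in LPS on every slide, beside 33.6% of all genes, 3 were lower on every slide (Trim25, Bst2 and Lgals3bp), beside 50.8%, and Oasl2 was mixed. Beside these changes, 4 of 6 microglial markers fell and 1 rose at 4 h, where 44.5% of all genes fell and 29.3% rose. Their summed level was 67.2 to 69.0 in saline and 44.1 to 46.2 in LPS. Of 6 endothelial markers 5 fell and 1 rose, with sums of 47.8 to 48.7 and 18.0 to 18.3. Of 5 markers of neutrophils and blood monocytes 3 rose, S100a8 by 3.08, S100a9 by 3.71 and Mpo by 0.52, from sums of 19.4 to 19.6 to sums of 24.4 to 25.2, with Cd177 not well above background in any 4 h array. Their part in the members' values was not tested, and in a whole tissue a change in the number of cells of a type cannot be told apart from a change in RNA per cell. At 4 h the split of all calls depended on the scaling: 39.7% of called genes were higher here and 28.4% with scaling to the array median, and the median of all genes ran from -0.39 to -0.04 over 15 settings. Relative to that median the members' median was 0.94 here and ran from 0.77 to 1.18.

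The second comparison asks the same at 24 h. All 34 genes were higher in LPS than in saline, beside 23.3% of all genes, and 0 of 34 were lower, beside 22.8%. Their median difference was 1.47, against 0.00 over all genes, and 28 were at least 2-fold higher, beside 541 of all 18179 genes. Of all calls at 24 h, 50.6% were higher, or 30.8% with scaling to the array median. The arrays of the 2 groups did not overlap for any of the 34, with LPS above saline, as in 28.4% of all genes. All 34 differences were above 0 on each of the 3 slides of 24 h, as in 34.8% of all genes. The 6 largest fitted rises were those of Ifi44, Irf7, Oasl1, Oas3, Zbp1 and Oas2, and of these only Oasl1 was also among the 6 largest at 4 h. Oas3, which is in each of these counts, was kept only through LPS 24 h and so gives no separate support. It is known at 24 h only by a bound, so its place in that order is not fixed.

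**Figure D3:**
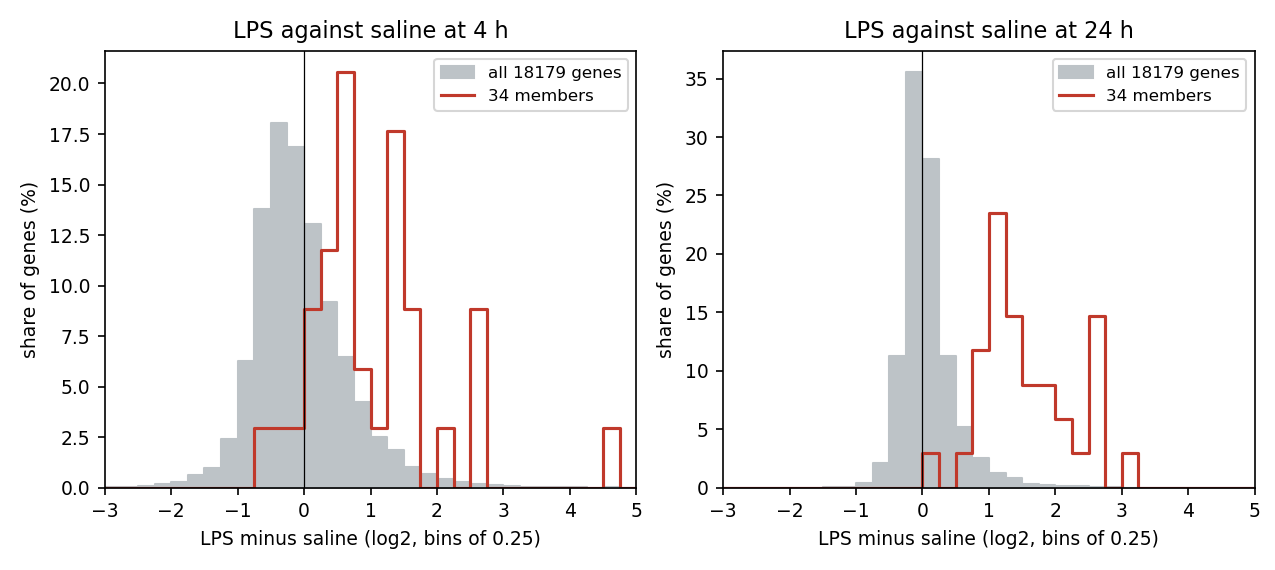
Share of genes (y axis, %) by log2 difference between LPS and saline (x axis, bins of 0.25) for the 34 members (red line) and all 18179 genes (grey), at 4 h on the left and 24 h on the right. The medians are 0.79 and -0.15 at 4 h and 1.47 and 0.00 at 24 h, and no member lies below 0 at 24 h.

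Ifi44, an interferon-induced protein of uncertain function, stood at -5.00, -7.86 and -5.58 in saline 24 h and -3.69, -2.76 and -2.47 in LPS 24 h (chr3:151394035-151394094). The groups did not overlap, although 1 saline array did not measure it and the spread was wide: the rise was 3.17 ± 0.64 (adjusted p = 0.0026, limma), or 1.03 with normexp background correction and 0.82 in the deposited matrix. Leaving out 1 array gave values from 2.32 (without saline 24 h replicate 2) to 3.74 (without saline 24 h replicate 1), so its place as the largest rise is not firm. Irf7 went from -2.51, -2.49 and -2.67 to 0.22, 0.23 and 0.08 (chr7:148450664-148451014), a rise of 2.74 ± 0.07 (6.66-fold, adjusted p = 2.41e-09, limma). All its LPS arrays lay above the 75th percentile of their array and all its saline arrays well below. Stat2 and Irf9, whose products are components of ISGF3, rose by 0.52 ± 0.03 and 1.07 ± 0.08.

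The other 8 sensors and OAS genes, leaving out Oas3, which was kept only through LPS 24 h, were each at least 2-fold higher at 24 h. Of all 18179 genes, 541 were called and at least 2-fold higher. Oasl1 went from -3.45, -3.30 and -3.40 to -0.65, -0.70 and -0.67, a rise of 2.71 ± 0.04, and Zbp1 from -2.14, -2.16 and -2.23 to 0.46, 0.38 and 0.38 (chr2:173032113-173032170), a rise of 2.58 ± 0.04 (adjusted p = 3.31e-10, limma). Oas2, which makes the second messenger that activates RNase L, went from -4.63, -4.62 and -4.62 to -2.14, -2.07 and -2.10 (chr5:121180434-121180493), a rise of 2.52 ± 0.05, or 1.36 with normexp background correction and 1.11 in the deposited matrix. In these genes the gap between groups far exceeded the spread within them. Oas3 was not well above background in any saline 24 h array (-6.46, -7.20 and -6.90) and was measured on all 3 LPS 24 h arrays (-4.17, -4.23 and -4.03; chr5:121203598-121203657). It was at least 4.33-fold higher in LPS (adjusted p = 0.000134, limma), a bound set by the dimmest signal called above background on each saline array, but was no longer called with normexp background correction (0.56, adjusted p = 0.121). Oasl2, not called at 4 h, rose by 1.82 ± 0.04, and Dhx58, Ddx58, Ifih1 and Eif2ak2 by 1.47 ± 0.04, 1.45 ± 0.07, 1.07 ± 0.03 and 1.01 ± 0.03. In the deposited matrix Ddx58 read 0.95 and Eif2ak2 0.64.

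In the other roles the rises at 24 h ran from 0.88 ± 0.08 (Trim21) to 2.17 ± 0.04 (Isg15) among ISG15 and ubiquitin genes, with Usp18 at 1.97 ± 0.05 and Trim25 at 0.95 ± 0.03. Trim21 read 0.50 with normexp background correction. Among the IFIT genes and Isg20 they were 2.19 ± 0.36 for Ifit1, 1.48 ± 0.04 for Ifit3, 1.47 ± 0.04 for Isg20 and 0.98 ± 0.07 for Ifit2. Ifit1 read 1.08 with normexp and 0.90 in the deposited matrix. Among the other effectors, Mx1 rose by 2.32 ± 0.06, Rsad2 by 1.97 ± 0.05, Ifitm3 by 1.74 ± 0.04, Mx2 by 1.72 ± 0.05, Bst2 by 1.44 ± 0.04 and Samhd1 by 0.82 ± 0.07. Mx1 read 1.14 with normexp and 0.93 in the deposited matrix, where Samhd1 read 0.50. Cmpk2 had the smallest change, 0.20 ± 0.04 (adjusted p = 0.00228, limma), and was not called with normexp (0.14, adjusted p = 0.472), with scaling to the array median (0.10, adjusted p = 0.128) or in the deposited matrix (0.11, adjusted p = 0.407). In the last group the range was from 1.21 ± 0.06 (Xaf1) to 3.17 (Ifi44), with Rtp4 at 1.63 ± 0.04, Parp14 and Lgals3bp at 1.24 each, Ifi35 at 1.22 and Parp9 at 1.21.

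Beside these rises, 5 of 6 microglial markers rose at 24 h and 1, P2ry12, fell, where 23.3% of all genes rose and 22.8% fell. Their sums were 24.0 to 24.6 in saline and 38.5 to 40.9 in LPS. Of 6 endothelial markers 5 rose (sums of 23.6 to 24.9 and 29.5 to 32.2), and of 5 markers of neutrophils and blood monocytes 3 rose (9.53 to 10.3 and 20.8 to 22.6). Of 3 genes listed as markers of plasmacytoid dendritic cells, the classical interferon producers of blood, 2 rose at 24 h. Their sum was 0.36 to 0.37 in saline and 0.40 to 0.44 in LPS. At 4 h 1 of the 3 rose and 1 fell (Siglech, -0.75), beside 29.3% and 44.5% of all genes. The sum was then 0.72 to 0.74 in saline and 0.44 to 0.48 in LPS. Ly6d and Ccr9 were not well above background on any saline 4 h array. The part of all these markers in the members' rise was not tested. The 12 members with an ISRE core had a median change of 0.72 at 4 h and 1.47 at 24 h, and the 13 with a window and no match had 1.05 and 1.22. At 4 h these sets ran from -0.70 to 4.60 and from -0.33 to 2.59, and they are described without a test.

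The third comparison sets the response at 24 h (LPS minus saline) against that at 4 h. The response of 24 genes was larger at 24 h and that of 7 was larger at 4 h, beside 42.5% and 26.4% of all genes, and 3 (Ifit1, Ifi44 and Samhd1) did not pass. The genes with the larger early response were Rsad2, Cmpk2, Isg20, Ifit2, Ifih1, Parp14 and Stat2. Stat2 (-0.19) was not called with normexp, with scaling to the array median or in the deposited matrix, where its values were -0.12 each, and Parp14 (-0.19) was not called with scaling to the array median (-0.12) and turned with the mean of its probes (0.21). For Rsad2 the response went from 4.60 at 4 h to 1.97 at 24 h, a difference of -2.63 ± 0.07 (adjusted p = 2.25e-09, limma). For Cmpk2, its neighbour on chromosome 12, it went from 1.52 to 0.20 (-1.32 ± 0.06), since its arrays moved from -0.19, -0.21 and -0.11 to 1.36, 1.35 and 1.34 at 4 h but from -0.54, -0.48 and -0.40 to -0.29, -0.28 and -0.26 at 24 h. For Isg20 it went from 2.59 to 1.47 (-1.12 ± 0.06), with LPS 24 h arrays at -0.21, -0.23 and -0.27 and saline 24 h arrays at -1.79, -1.64 and -1.69. In these 3 genes the LPS arrays lay above the saline arrays at each time, narrowly so for Cmpk2 at 24 h, and the saline level differed between the times as well.

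Among genes measured in every group, the largest later responses were those of Bst2 and Oasl2. Bst2 stood at 2.71, 2.65 and 2.76 in saline 24 h and 4.16, 4.10 and 4.17 in LPS 24 h, so that its response went from -0.70 to 1.44, a difference of 2.14 ± 0.05 (adjusted p = 1.74e-09, limma). Oasl2 was at 2.53, 2.62 and 2.63 in saline 4 h and 2.61, 2.62 and 2.57 in LPS 4 h, but at 0.07, 0.12 and 0.13 in saline 24 h and 1.94, 1.86 and 1.98 in LPS 24 h, a difference between responses of 1.82 ± 0.06. In both, the LPS 24 h level was below that of either 4 h group, and the saline 24 h level was the lowest. For Oas3 the fitted difference of 1.87 ± 0.48 (adjusted p = 0.00562, limma) rests on saline values that were not well above background at either time and has no place in this order. At 4 h saline read -6.78, -5.59 and -5.34 and LPS -4.82, -5.04 and -5.33, with 2 of the LPS arrays measuring it, and the difference was 0.66 and not called with normexp background correction. Other differences moved with the processing. Oas2 (1.26) read 0.67 with normexp. Oasl1 (0.20) turned to -0.12 with normexp and to a called -0.30 in the deposited matrix, Mx2 (0.26) was not called in either (0.12 and 0.02), and Mx1 (0.95) and Trim21 (0.44) were not called in the deposited matrix (0.13 and 0.17).

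**Figure D4:**
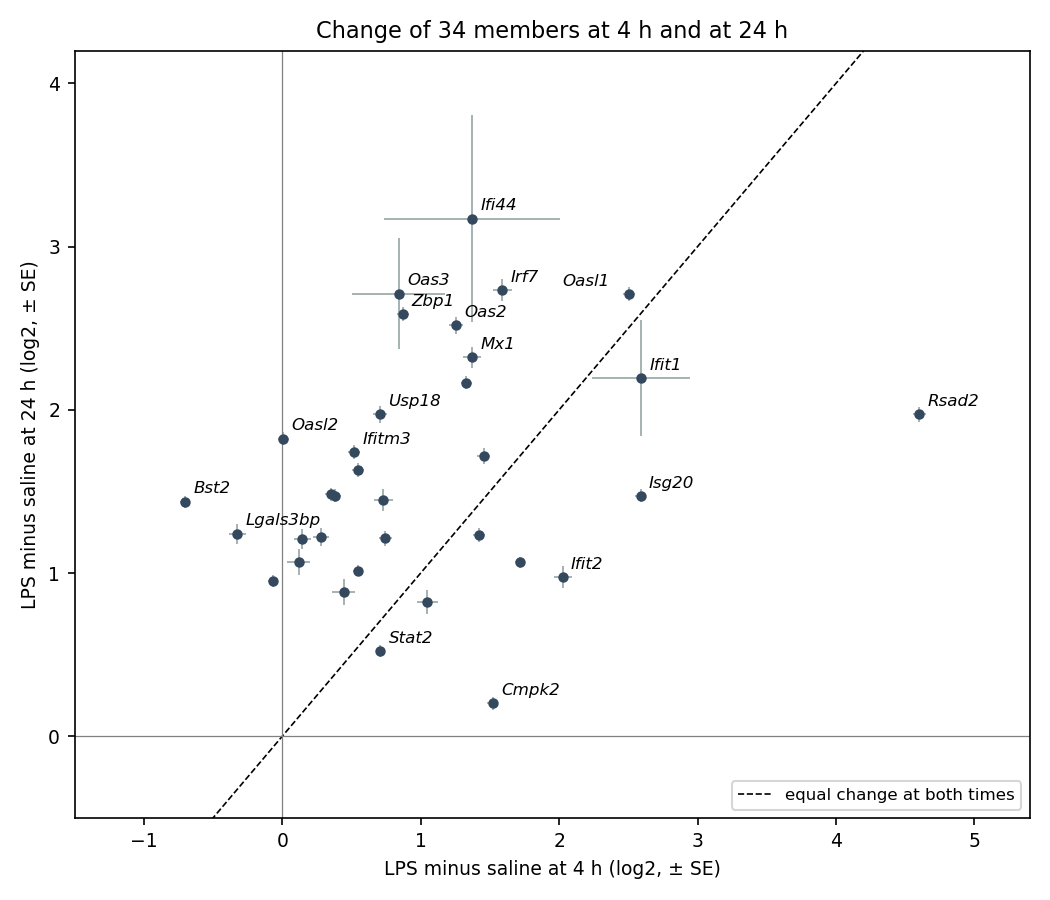
Log2 difference between LPS and saline at 4 h (x axis) and at 24 h (y axis) for the 34 members, with SE bars; the dashed line marks equal change. All points lie above 0 at 24 h, 24 genes were called above the line and 7 below it, with Rsad2 farthest to the right at 4.60.

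The fourth comparison concerns the saline mice alone. Of the 34 genes, 33 were lower in saline 24 h than in saline 4 h and 1, Stat2, was higher, beside 48.5% of all genes lower and 32.3% higher. The median difference was -1.65, against -0.16 over all genes, which is larger in size than the median LPS response at either time. Oas3 counts among the 33, although no saline array measured it and its saline arrays of the 2 times overlapped. Its call was lost with quantile normalization (-0.63, adjusted p = 0.252, limma) and in the deposited matrix (-0.11, adjusted p = 0.164, limma). Ifi44 read -3.20, -2.50 and -2.63 in saline 4 h, above all saline 24 h arrays, a difference of -3.37 ± 0.64 that was -1.61 with normexp background correction. Zbp1 read 0.50, 0.42 and 0.39 in saline 4 h, a difference of -2.61 ± 0.04, and Bst2, given above, differed by -2.51 ± 0.04 (adjusted p = 1.18e-11, limma). With the mean of their kept probes, Ifit2 (-0.09, adjusted p = 0.474) and Cmpk2 (0.02) were not called, and the second probe of Ifit2 read -6.13 in saline 4 h, not well above background on any array, and -4.84 in saline 24 h. Stat2 read -0.11, -0.19 and -0.17 in saline 4 h and 0.17, 0.21 and 0.23 in saline 24 h, a difference of 0.36 ± 0.03. These 2 groups differ in the scan run as well as in time, and in the tissue markers given above, so which of them goes with the higher baseline cannot be told apart.

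Levels were also compared across the times. In 16 members all LPS 24 h arrays lay below all saline 4 h arrays, beside 47.1% of all genes, in 13 they lay above, beside 35.3%, and in 5 (Zbp1, Usp18, Ifit1, Samhd1 and Ifi44) they overlapped. Between the LPS groups, 28 members were lower at 24 h on every array, beside 44.0% of all genes, and 6 were higher, beside 34.6%: Ddx58, Oas3, Stat2, Irf7, Irf9 and Ifitm3. With saline 24 h as the control for LPS 4 h, 0 members were lower, and Bst2 and Lgals3bp turned to 1.81 and 1.65. With saline 4 h as the control for LPS 24 h, 13 members were higher and 16 lower. The direction of the LPS effect thus rests on controls of the same time and scan run for Bst2 and Lgals3bp at 4 h and for 19 members at 24 h. On all 3 LPS 4 h arrays all 34 genes lay above every saline 24 h array, as did 44.0% of all genes, and these groups differ in time and scan run too.

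For 10 members more than 1 probe was kept, which gives a second reading from the same RNA. No gene had probes called in opposite directions in an LPS comparison. Rsad2 agreed over 3 probes (4.60, 4.16 and 4.01 at 4 h) and Isg20 over 2 (2.59 and 2.63). For Trim25, a ubiquitin ligase that activates RIG-I, the brighter probe read -0.07 at 4 h and the dimmer one 1.69 (adjusted p = 9.37e-07, limma over probes), while at 24 h they read 0.95 and 1.41. The difference between responses was 1.02 on the brighter probe and -0.28 (not called) on the dimmer one. Their 60-base sequences, printed because they mark where on the gene the readings part, lie at chr11:88881205-88881264 and chr11:88878330-88878389 on mm9.
Trim25 brighter probe: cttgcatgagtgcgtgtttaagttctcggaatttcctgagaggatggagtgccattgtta
Trim25 dimmer probe: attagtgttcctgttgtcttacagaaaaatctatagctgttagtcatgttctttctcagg

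Other genes differed in size more than in direction. For Ifit2 a second probe, not above background in saline 4 h, was at least 4.38-fold higher in LPS 4 h. For Ifi44 a second probe, kept only through the LPS groups, was at least 2.92-fold higher at 4 h and at least 1.86-fold higher at 24 h. The second probe of Mx1, also kept only through the LPS groups, read 0.35 at 4 h (adjusted p = 0.577, limma), against 1.37 on the brighter one. It was measured on 1 of 3 saline 4 h arrays and no saline 24 h array, and was at least 3.00-fold higher at 24 h. For Parp14 the probes were called in opposite directions in the difference between responses (-0.19 and 0.62), so that its direction there depends on the probe. For Ddx58 that difference read 0.72, 0.38 and 0.10 over 3 probes, the last not called. For Irf9 it read 0.95 and, not called, 0.75.

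**Figure D5:**
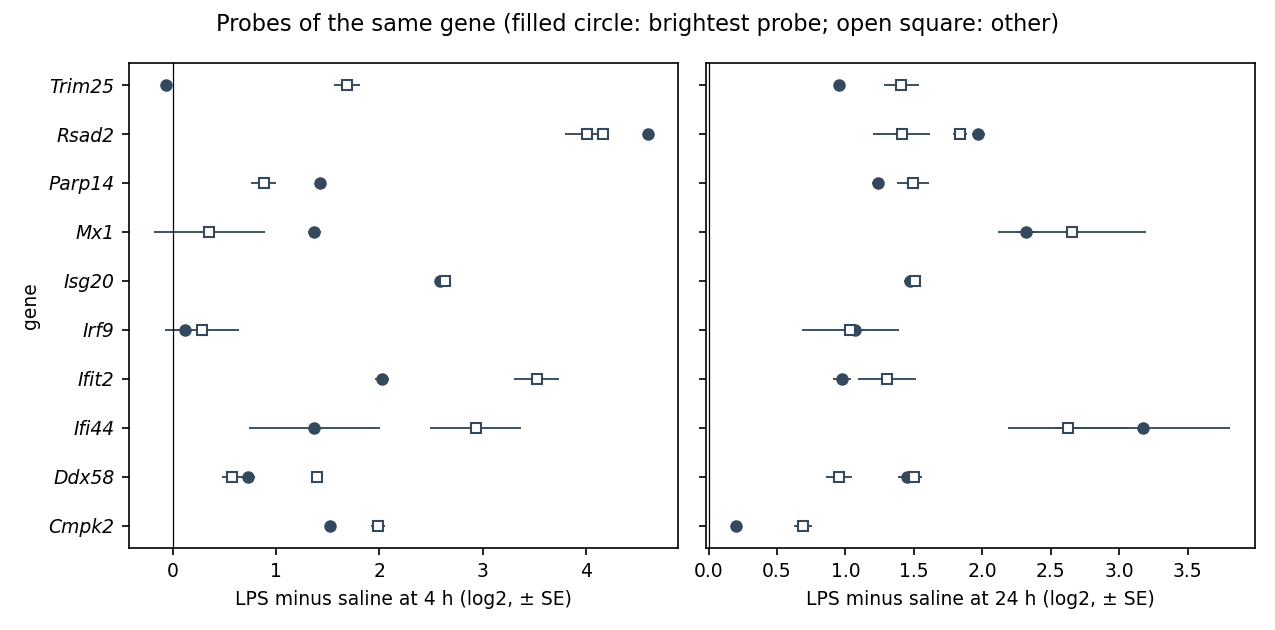
Log2 difference between LPS and saline at 4 h (left) and 24 h (right), with SE, for each kept probe of the 10 members with more than 1; filled circles are the brightest probe, used for the gene, and open squares the others. The probes of Trim25 read -0.07 and 1.69 at 4 h, and those of Isg20 coincide.

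Other genes of the pathway were read from lists. Of 14 interferon genes listed, 11 were on the arrays under these names and 5 were measured. At 4 h 0 of 5 rose and Ifng, Ifnab and Ifna9 were called lower, beside 29.3% and 44.5% of all genes. At 24 h 0 of 5 rose, beside 23.3%. Ifnb1, the interferon beta gene, was well above background on 1 of the 12 arrays, an LPS 24 h array, so its level was not measured in any group. Ifng, the type II interferon, read -3.88, -3.66 and -2.79 in saline 4 h and -4.96, -4.66 and -4.87 in LPS 4 h, a difference of -1.38 (adjusted p = 0.000533, limma). Ifnab differed by -0.88 at 4 h and, not passing, by 0.26 at 24 h. Ifna9 was not well above background on any 4 h array, so no fold is given.

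Of the receptor chains and kinases, 1 of 4 rose and 1 fell at 4 h, beside 29.3% and 44.5% of all genes. At 24 h 3 rose and 1 fell, beside 23.3% and 22.8%. Ifnar1 differed by -0.03 at 4 h (adjusted p = 0.603, limma) and rose by 0.20 at 24 h, and Ifnar2 fell by 0.44 at 4 h and rose by 0.25 at 24 h. Jak1 rose by 0.26 and then fell by 0.16, and Tyk2 rose by 0.33 at 24 h. Among other transcription factors of the pathway, Stat3 rose by 0.89 and 0.27 and Irf5 by 0.20 and 0.79, whereas Irf3 (-0.29 and 0.16) and Irf8 (-0.75 and 0.79) fell at 4 h and rose at 24 h.

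Of 12 measured genes that induce interferon, 6 rose and 4 fell at 4 h, beside 29.3% and 44.5% of all genes. At 24 h 8 rose and 1 fell, beside 23.3% and 22.8%. The nucleic acid receptors Tlr3 (1.12 and 0.32) and Tlr7 (1.12 and 0.96) and the DNA sensor Cgas (1.61 and 0.43) rose at both times. Of 6 inhibitors of the pathway, 1 rose and 3 fell at 4 h, near the 29.3% and 44.5% of all genes, and 4 rose at 24 h, beside 23.3%. Socs3, an inhibitor of JAK kinases, rose by 2.63 and 1.52, while Socs1 and the phosphatase gene Ptpn6 fell at 4 h (-0.59 and -0.35) and rose at 24 h (0.42 and 1.06).

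A further 23 measured genes induced by type I interferon were not among the 34. At 4 h 14 rose and 5 fell, beside 29.3% and 44.5% of all genes, with a median of 0.56. At 24 h 22 rose and 1, Adar, fell, beside 23.3% and 22.8%, with a median of 1.12. The chemokine gene Cxcl10 rose by 2.59 and 2.38, and Oas1a by 0.35 and 2.14. Ifi27l2a fell by 0.90 at 4 h and rose by 2.30 at 24 h, the same sequence of signs as Bst2 and Lgals3bp. In saline 24 h against saline 4 h, 18 of these 23 were lower and 3 higher, beside 48.5% and 32.3% of all genes.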

How the data were processed

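Per the file headers, the deposited files hold spot intensity of 12 single-colour arrays from Agilent Feature Extraction 10.7.3.1 (version 9.1 in the submitters' processing notes), background-subtracted and not scaled between arrays, on mm9. The deposited matrix holds the authors' log2 values, with column medians of 6.979 to 6.986; against the scanner's log2 intensity of the same arrays they correlate at 0.970 to 0.979 with slopes of 0.673 to 0.765, their direction is the same, and their exact scaling and background step are not given in the sources used here.

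The processed intensity was taken as log2, 12 outlier spots were dropped, repeated spots averaged and the 75th percentile over probes subtracted. Probes well above background (on at least 0.5 of their spots) on all 3 arrays of 1 group were kept, 27683 of 41174. The RefSeq table gave names by accession for 27479 probes, by symbol for 5478 and by synonym for 679, with 7538 as in the file. The brightest kept probe stood for a gene. Means of the 4 groups were fitted with limma 3.58.1 in R 4.3.3 over 18179 genes, and all tests are two-sided. The fit was tested on simulated data.

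The members and lists were chosen with earlier results of these data known. All members are named. Arrays are given one by one for the 6 largest changes with non-overlapping arrays and every fall per LPS comparison, and for the 3 largest of each sign otherwise. From each pathway list up to 3 genes with the smallest adjusted p are named, plus Ifnb1, Ifnar1, Ifnar2 and Irf3; an item of these lists is not reported here. A fold of at least a given size sets the bright group's mean against, per dim array, the higher of the lowest signal well above background and the probe's own. Alternatives were tried for the deposited matrix, background correction, scaling, filters, probes, the arrays in the fit, moderation, thresholds, replicate and slide blocks, controls of the other time and leaving out arrays. The number of arrays limits precision.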

Additional observations from a re-analysis of the deposited data

Results flagged for a closer look

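The response to LPS differed between 4 h and 24 h in 31 of the 34 genes, beside 12535 of all 18179 genes. The test was that of the difference itself (limma, adjusted p under 0.05, n = 3 per group). The difference was called above 0 for 42.5% of all genes and below 0 for 26.4%. Values are the log2 response at 24 h minus that at 4 h. The response was larger at 24 h for the sensors and OAS genes Oasl2 (1.82), Zbp1 (1.71), Oas2 (1.26), Dhx58 (1.09), Ddx58 (0.72), Eif2ak2 (0.47) and Oasl1 (0.20). Oasl1 turned to -0.12 with normexp background correction and was called the other way in the deposited matrix (-0.30). The other probes of Ddx58 read 0.38, called, and 0.10, not called. The fitted value of Oas3 (1.87) rests on saline arrays that did not measure it and was 0.66 and not called with normexp. It was larger for the factors Irf7 (1.14) and Irf9 (0.95), and for Usp18 (1.26), Trim25 (1.02), Isg15 (0.84) and Trim21 (0.44). The second probe of Irf9 read 0.75 and that of Trim25 -0.28, neither called. Trim21 was not called with normexp (0.30) or in the deposited matrix (0.17). The response was also larger at 24 h for the effectors Bst2 (2.14), Ifitm3 (1.22), Ifit3 (1.13), Mx1 (0.95) and Mx2 (0.26). For Mx1 and Mx2 the deposited matrix gave 0.13 and 0.02, not called, and Mx2 was not called with normexp either (0.12). It was larger at 24 h too for Lgals3bp (1.57), Rtp4 (1.08), Xaf1 (1.06), Ifi35 (0.94) and Parp9 (0.47). It was larger at 4 h for Rsad2 (-2.63), Cmpk2 (-1.32), Isg20 (-1.12), Ifit2 (-1.05), Ifih1 (-0.65), Stat2 (-0.19) and Parp14 (-0.19). Stat2 was not called with normexp, with scaling to the array median or in the deposited matrix (-0.12 each), and Parp14 was not called with normexp (-0.28) or with scaling to the array median (-0.12) and turned with the mean of its probes (0.21). The size of this difference contains the difference between the saline groups, which went with the scan run as well. Groups of 3 arrays are too small for a test of outlying samples.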

How the results depend on the processing

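Leaving out each array in turn moved the members called at 4 h between 26 and 29 higher and 2 and 3 lower, at 24 h by 0 (34 higher), in the difference between 24 and 25 higher and 7 and 8 lower, and in saline between 32 and 33 lower with 1 higher. Over all genes the ranges were 5034 to 5368 higher and 7671 to 8189 lower at 4 h, 3779 to 4325 and 3510 to 4133 at 24 h, 7447 to 7745 and 4619 to 4821 for the difference, and 5561 to 5901 and 8563 to 8875 for saline. Of single members, the calls of Oas3 and Xaf1 at 4 h, Parp14 in the difference and Oas3 in saline were lost without at least 1 array. Those of Ifi44 and Trim25 at 4 h and of Ifi44 and Samhd1 in the difference were gained. No called value changed sign, while Oasl2 at 4 h, not called, ran from -0.023 to 0.023.

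At 4 h correlations of same-numbered arrays were 0.105, 0.193 and -0.159, so replicate numbers did not pair all samples there. At 24 h they were 0.073, 0.104 and 0.098, and each array correlated best with its own number. The numbers are also the slides at 24 h, so a pairing by number and one by slide cannot be told apart. With a replicate block 26 members were higher at 4 h, Oas3 (adjusted p = 0.0753) and Xaf1 (adjusted p = 0.0627) being lost, and 34 at 24 h, with no other call of a member changed. With slide as a block 28 and 34 members were higher. 

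With normexp background correction all genes gave 3176 higher at 4 h, 1831 higher and 1578 lower at 24 h, 4938 and 2846 for the difference and 3590 higher in saline. Oas3 at 4 h turned to -0.095 and Oasl1 in the difference to -0.118. Members lower at 4 h numbered 1 with quantile normalization and with the deposited matrix, where Lgals3bp turned to 0.060 and 0.054, and 4 with median scaling, where Xaf1 turned to -0.022 and 6425 of all genes were lower at 24 h. Oasl1 in the difference was -0.296 in the deposited matrix. Without the filter 15087 genes were lower in saline. With the mean of probes, Parp14 in the difference was 0.215 and Cmpk2 in saline 0.024. With every probe as a feature, 8757 were higher at 4 h, 12 member probes and 7841 of all were lower in the difference, and 3 and 10508 were higher in saline. With at least 2-fold in addition, members numbered 14 higher and 0 lower at 4 h, 14 and 4 in the difference and 0 higher in saline, and all genes 1345 and 810 at 4 h, 541 and 42 at 24 h, 1646 and 1415 in the difference, and 2170 and 2965 in saline. With saline 24 h as controls for LPS 4 h 0 members were lower, and Bst2 (1.81) and Lgals3bp (1.65) turned. With saline 4 h as controls for LPS 24 h, 13 members were higher and 16 lower, and 8493 of all genes were lower. There the values turned for Bst2 (-1.08), Ifit3 (-0.82), Lgals3bp (-0.74), Oasl2 (-0.67), Eif2ak2 (-0.66), Parp14 (-0.57), Xaf1 (-0.54), Ifit2 (-0.49), Ifi35 (-0.48), Trim25 (-0.46), Trim21 (-0.39), Dhx58 (-0.23), Ifi44 (-0.20), Mx2 (-0.18), Isg20 (-0.15), Rtp4 (-0.13), Cmpk2 (-0.11), Usp18 (-0.083) and Zbp1 (-0.027). The ISRE core was in 41.4% of member windows, the longer element in 17.2% and the motif TTCNNNGAA in 24.1%, beside 8.30% of all windows. The causes were not tested. Oas3 and Ifi44 were not well above background on every array.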
